A study of Mus musculus with 8 samples.

Results

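Ery A is a class of erythroid progenitors that the authors annotated from RNA alone, and it is described here by 35 surface proteins. Its members were all cells given that name in the authors' table of annotated cells, 1360 of 22602 cells. The cells came from bone marrow of C57Bl/6 FlkSwitch mice, a cross of Flk2-Cre and mT/mG animals in which stem cells express tdTomato and recombination by Flk2-Cre switches a cell and its progeny to GFP without return. The study used male FlkSwitch mice, either young (2 to 3 months) or aged (20 to 24 months, called Old in the table). All groups share this genotype, and no treatment is named. Marrow was enriched for c-Kit (CD117), stained for mature lineage proteins including TER-119, and sorted as lineage-negative c-Kit+ cells, CD150- or CD150+. Antibodies to these sorting proteins were thus already on the cells when the barcoded antibodies were added. How many animals were pooled is not given in the sources used here.

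Erythroid progenitors descend from multipotent cells and step by step give up the proteins of early progenitors while they prepare to make hemoglobin. They depend on CD117, the receptor for stem cell factor, and then on erythropoietin. CD105 (endoglin, a co-receptor for TGF-β) marks erythroid-committed progenitors, CD44 (a hyaluronan receptor) is abundant on early erythroblasts and declines as they mature, and TER-119 appears on the later nucleated precursors and stays on red cells.

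Each cell is named by a group, with letters A, B, C or D and numbers 1, 2, 3 or 4. Numbers 1 and 2 held Young cells alone and numbers 3 and 4 Old cells alone. These 16 names match no title of the 8 libraries, and no label says which CD150 fraction a cell was sorted in. The libraries therefore form 1 condition, no test over libraries was possible, and no p-values are given. Letters C and D held 1244 of the 1360 Ery A cells, which is 91.5% (exact 95% interval 89.9 to 92.9%). In these letters Ery A was 13.3% of the annotated cells, against 0.875% in A and B. The cell groups of C and D held 298 (C1), 80 (C2), 213 (C3), 25 (C4), 316 (D1), 74 (D2), 211 (D3) and 27 (D4) Ery A cells. The classes compared with it, Ery B (1460 cells in C and D), Early Ery progenitor A (309, here Early Ery A) and Early Ery progenitor B (786, here Early Ery B), were also named by the authors from RNA. Comparisons between classes were made inside each of these 8 cell groups, and the mean and SD over cell groups are given. How cell groups relate to animals is not stated, so the SD describes spread between cell groups that may be technical.

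An antibody-derived tag (ADT) is the DNA barcode of an antibody, and the tags counted on a cell measure how much antibody it bound. The median Ery A cell of C and D held 2060.5 ADT counts, against 1860.5 in Ery B, 1066 in Early Ery A and 1197 in Early Ery B. Medians of the cell groups ran from 903 (D4) to 2711 (C1) in Ery A and were lower in numbers 2 and 4 of each letter. The median Ery A cell also had 58462.5 RNA UMIs and 24 detected antibodies. Of all cell barcodes, 52 occurred in 2 cell groups, none of them within a letter, and 5 of these belonged to an Ery A cell. How doublets were treated is not given in the sources used here, and all annotated cells were kept. A normalized score is the authors' centred and log-transformed ADT count, so classes are compared as differences of scores, and folds are given for shares of ADT counts alone.

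CD44, CD117, CD105 and CD79b, the markers of the class, carried most of the antibody signal of Ery A, as they did in the classes compared with it. They were chosen with earlier results of these data known, so their levels are no test of the label. As the mean of the 8 cell groups, CD44 made up 50.0% ± 9.79 (SD) of the ADT counts, CD117 23.0% ± 12.3, CD79b 6.91% ± 3.51 and CD105 6.47% ± 2.99. These means span 2 ranges. CD117 was 10.1 to 13.9% in numbers 1 and 3 and 31.0 to 38.8% in numbers 2 and 4, and CD44 56.7 to 60.9% and 39.0 to 42.7%. CD48, an adhesion protein of most blood progenitors, made up a mean of 7.06% ± 2.19. CD44 and CD117 also held the largest mean shares in Ery B (51.7% and 22.5%), Early Ery A (39.8% and 25.7%) and Early Ery B (43.1% and 25.2%). In GENCODE vM21 on mm10, CD44 is encoded by Cd44 (chr2:102811141-102901665, minus strand), CD117 by Kit (chr5:75574916-75656722, plus strand), CD79b by Cd79b (chr11:106311341-106314762, minus strand) and CD105 by Eng (chr2:32646595-32682669, plus strand). Every Ery A cell of C and D lay above the authors' CD117 gate (1244 of 1244). Cells had been enriched for and sorted on c-Kit, which largely set this share beforehand. Of these cells 97.3% (exact 95% interval 96.2 to 98.1%) lay below their Sca-1 gate. None of 1244 passed the CD41 gate, and a count of 0 allows up to 3 of 1244, a share of up to 0.241%. Among the 16 classes with at least 10 cells in each of C1, C3, D1 and D3, Ery A ranked second, behind the class Ery 4, in mean score of CD105, CD44 and CD79b. Ery A and Ery B overlapped in all 3. In CD117 it was the third in these cell groups, behind both Early Ery classes. Among the 7 classes of numbers 2 and 4, Ery A came second behind Ery B in CD105, CD44 and CD79b, and in CD117 both stood at 1.68 and overlapped.

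The normalized score of CD105 in Ery A was 1.60 in C1, 1.17 in C2, 1.54 in C3, 1.23 in C4, 1.59 in D1, 1.12 in D2, 1.50 in D3 and 1.14 in D4. It was thus high in numbers 1 and 3 and low in numbers 2 and 4, at either age and in either letter, with no overlap. CD79b, a chain of the B cell receptor, was high and low in the same cell groups. Its score was 1.50 in C1, 1.19 in C2, 1.52 in C3, 1.21 in C4, 1.49 in D1, 1.18 in D2, 1.51 in D3 and 1.16 in D4. The B cell protein B220 lay far lower, at 0.213 to 0.509, and CD3 of T cells at a mean of 0.0562. Both are mature lineage proteins, and the cells had been sorted as lineage-negative. CD79b also stood at 1.02 to 1.13 in the multipotent, lymphoid and granulocyte-monocyte classes of the same letters. CD44 was between 1.71 and 1.91, again higher in numbers 1 and 3. CD117 ran the other way, from 1.58 in C1 and D1 to 1.73 in C4.

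**Figure D1:**
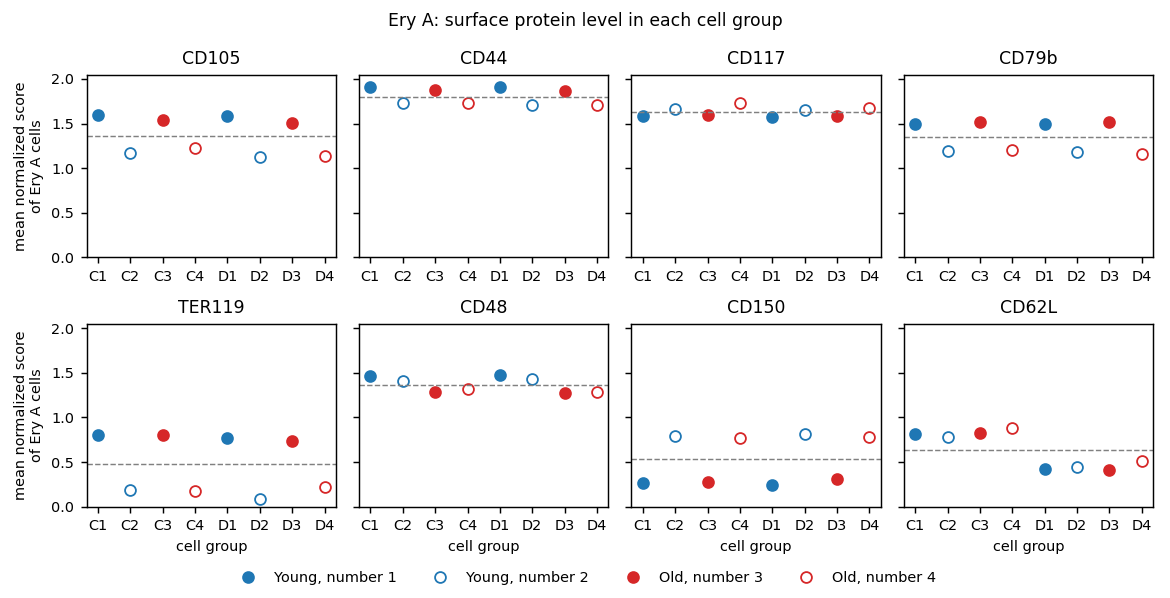
Mean normalized score (y) of 8 surface proteins on Ery A cells in each cell group of letters C and D (x), with 1 point per cell group and a dashed line at the mean of the 8. CD105, CD44, CD79b and TER-119 are high in numbers 1 and 3 (filled) and CD150 in numbers 2 and 4 (open), CD48 is lower in Old (red), and CD62L is higher in letter C.

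TER-119, the late erythroid antigen, split Ery A most. Its score was 0.808 in C1, 0.805 in C3, 0.770 in D1 and 0.733 in D3, but 0.188 in C2, 0.174 in C4, 0.0846 in D2 and 0.222 in D4. As the mean of numbers 2 and 4, Ery A stood at 0.167, the second of 7 classes behind Ery B (0.231). The others ran from 0.0693 in MKP to 0.113 in Early Ery A, and of the Ery A cell groups D2 alone lay in that range. The median Ery A cell held 15 TER-119 tags in C1 and in C3, and 0 in D2. In C1, 4.03% of Ery A cells had no TER-119 tag (12 of 298, exact 95% interval 2.10 to 6.93%), whereas in D2 59.5% had none (44 of 74, 47.4 to 70.7%). Thinned to 300 ADT counts per cell, these shares were 23.5% and 81.9%. At equal depth both shares were thus higher, and C1 and D2 still differed. Cells had been sorted as negative for a lineage mix that held TER-119. The cause of the spread between cell groups was not tested.

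Numbers 2 and 4 differed from numbers 1 and 3 in further proteins, a contrast chosen after its values were seen. As 2 minus 1 and 4 minus 3 within each letter (4 pairs), 12 of 35 proteins (34.3%) had a mean difference of at least 0.1 in score and 1 sign in every pair, and 17 of 35 (48.6%) had cell groups that did not overlap between numbers. Lower in 2 and 4 were TER-119 (-0.612 ± 0.0730), CD105 (-0.391 ± 0.0685), CD79b (-0.322 ± 0.0224), B220 (-0.176 ± 0.0547) and CD44 (-0.170 ± 0.0232). Higher were CD150 (0.516 ± 0.0388), a receptor of stem and megakaryocyte-erythroid progenitors, CD38, MHCII, CD54, CD86, CD27 and CD9. CD117 was 0.0941 ± 0.0238 higher, just under the limit. Cells of numbers 2 and 4 had fewer ADT counts. Thinned to 300 counts per cell, the difference of TER-119 was -0.348 ± 0.0634, that of CD105 -0.326 ± 0.0426 and that of CD150 0.429 ± 0.0536, while CD117 reached 0.228 ± 0.0148. Of the 4 erythroid proteins 3 were thus lower, and of the 7 multipotent or stem proteins 3 were higher. The score of CD105 and of CD79b was lower in numbers 2 and 4 in 7 of 7 classes with such pairs, Ery A included. By contrast, TER-119 differed by more than 0.1 in Ery A and Ery B (-0.609) alone among them. In these cell groups 93.8% of the Ery A cells of C2, 96.0% of C4, 95.9% of D2 and 88.9% of D4 lay above the authors' CD150 gate, against 19.0 to 23.7% in numbers 1 and 3. CD150 was higher in numbers 2 and 4 in each class with such pairs, by 0.390 in MKP to 0.599 in MEP. Cells had been sorted on CD150, so its difference is no independent finding. Whether the numbers stand for the CD150 fractions was not tested.

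CD62L was the protein that differed most between Ery A and Ery B, and no erythroid protein was called. CD62L (L-selectin) is a homing receptor of lymphoid and early myeloid cells. Its score in Ery A was 0.815 in C1, 0.781 in C2, 0.825 in C3, 0.884 in C4, 0.421 in D1, 0.447 in D2, 0.414 in D3 and 0.509 in D4. In every cell group it was higher than in Ery B, with a mean difference of 0.217 ± 0.0867 (SD, n = 8 cell groups). As a share of ADT counts CD62L was 0.597% ± 0.389 in Ery A and 0.295% ± 0.171 in Ery B, a fold of 2.02. Of 35 proteins, 2 (5.71%) were called, meaning a mean difference of at least 0.1 with 1 sign in every cell group. The other was CD27, a receptor of the TNF family on multipotent and lymphoid cells, at 0.104 ± 0.0671 higher in Ery A. Without D2 its difference was 0.0833 and without D4 0.0978, both under the limit. The median Ery A cell held 1 to 4 CD27 tags, depending on the cell group.

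None of the markers of Ery A was called against Ery B. CD105 differed by -0.0305 ± 0.0494, CD44 by -0.00381 ± 0.0217, CD117 by 0.0148 ± 0.0181 and CD79b by -0.0304 ± 0.0492, each with both signs among the cell groups. TER-119 differed by -0.0626 ± 0.0521 and was lower in Ery A in 6 of 8 cell groups. CD48 (0.0699 ± 0.0523) and CD34 (0.0362 ± 0.0237) were higher in Ery A in all 8, by less than the limit of 0.1. Sca-1, CD41, CD135, CD61, CD9, CD16/32 and CD150 had both signs. In numbers 2 and 4 alone CD150 was called, at 0.126 ± 0.0727 (0.0337 to 0.200 over 4 cell groups). By list, 0 of 4 erythroid, 1 of 7 multipotent or stem, 1 of 9 adhesion and activation, and 0 of 6 granulocyte-monocyte proteins were called, beside 5.71% of all 35, whose median difference was 0.0123.

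The 2 other Ery classes present in numbers 1 and 3 gave a like picture for CD62L. It was 0.195 ± 0.0969 higher in Ery A than in Ery C and 0.191 ± 0.0985 higher than in Ery 4, in 4 of 4 cell groups each. In both comparisons few proteins were called, 5.71% against Ery C and 8.57% against Ery 4. TER-119 placed Ery A between them, 0.101 ± 0.0477 above Ery C and below Ery 4 by a difference of -0.225 ± 0.0707.

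**Figure D2:**
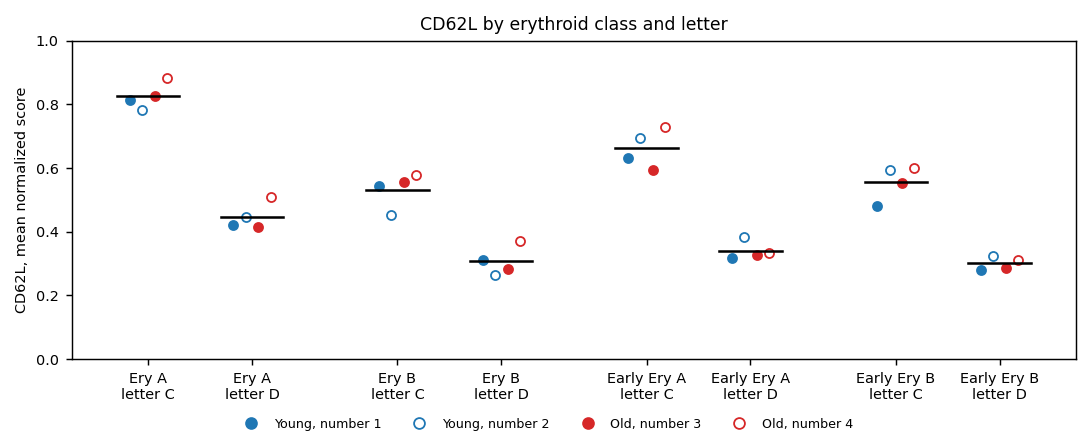
Mean normalized score of CD62L (y) in each cell group of 4 erythroid classes, split by letter (x), with bars at the mean of the 4 cell groups of a letter. Ery A lies above the other classes of its own letter, and every class is higher in letter C than in D.

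CD62L also differed by letter. In Ery A the 4 cell groups of letter C (0.781 to 0.884) all lay above those of letter D (0.414 to 0.509), and the difference from Ery B was 0.270 to 0.328 in C and 0.109 to 0.181 in D. Such a split of C above D appeared in 12 of 19 classes with cells in both letters. GMP/Neut progenitor A, a class with high CD62L, missed it narrowly, with 1.42 to 1.46 in C and 1.37 to 1.43 in D. Whether the split depends on the level of CD62L was not tested. The median Ery A cell carried 13 to 16 CD62L tags in C and 3 to 4 in D. What the letters stand for is not given in the sources used here, so a difference in staining or capture cannot be told apart from one in the cells.

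Against the Early Ery classes, Ery A carried more CD105 and less CD27, CD38, CD54 and CD150. From Early Ery A, 10 of 35 proteins (28.6%) were called, 4 of them (11.4%) higher in Ery A and 6 (17.1%) lower. From Early Ery B, 8 of 35 (22.9%) were called, 2 (5.71%) higher and 6 (17.1%) lower. These comparisons share the Ery A cells, so their values are given side by side and are not independent.

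CD105 was 0.222 ± 0.0497 higher than in Early Ery A (0.119 in D2 to 0.286 in C1) and 0.154 ± 0.0415 higher than in Early Ery B (0.0970 in D4 to 0.203 in D1). Its share of ADT counts was 3.80% ± 1.14 in Early Ery A and 4.24% ± 1.45 in Early Ery B, so that of Ery A was 1.71-fold and 1.53-fold as large. CD44 was 0.101 ± 0.0156 higher than in Early Ery A and 0.0597 ± 0.0168 higher than in Early Ery B, in 8 of 8 cell groups each, although the second difference lay under the limit. The first call was lost without C1 (0.0982) or C4 (0.0982) and at 300 ADT counts per cell (0.0723). CD79b was 0.0795 ± 0.0228 higher than in Early Ery A in all 8. CD117 had both signs in both comparisons, with differences of 0.0225 ± 0.0544 and -0.000465 ± 0.0545. In numbers 2 and 4 it was higher in Ery A in all 4 cell groups of both comparisons, by 0.0202 to 0.0893. In numbers 1 and 3 it was lower than in Early Ery B in 4 of 4 (-0.0891 to -0.0220), and its mean difference from Early Ery A was -0.0262 ± 0.0197.

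TER-119 showed the largest differences, and they lay in numbers 1 and 3. There it was 0.656 ± 0.0393 higher in Ery A than in Early Ery A (4 cell groups) and 0.595 ± 0.0211 higher than in Early Ery B. In numbers 2 and 4 the differences were 0.0545 ± 0.0455 and 0.0710 ± 0.0570, from 0.000769 in D2 to 0.111 in D4 for Early Ery A and from -0.00705 to 0.128 for Early Ery B. Over the 8 cell groups this gave 0.355 ± 0.324 and 0.333 ± 0.283, and only in D2 was the second difference negative. The call against Early Ery A was lost with medians over cells, on the log2 scale, with scores centred on the lineage antibodies and in cells of middle depth, where not every cell group was higher. The lineage antibodies include TER-119 itself. Where TER-119 is higher in Ery A, centring on them therefore lowers every difference, that of TER-119 included. TER-119 made up 0.436% ± 0.363 of the ADT counts of Ery A, 0.0748% ± 0.0272 of those of Early Ery A and 0.0717% ± 0.0133 of those of Early Ery B.

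CD27, CD38 and CD150 were the multipotent or stem proteins called lower in Ery A. CD27 was -0.286 ± 0.217 from Early Ery A and -0.254 ± 0.196 from Early Ery B, negative in all 8 cell groups, and in share of ADT counts it was 3.25-fold and 2.50-fold as high in the early classes. In C1, C3, D1 and D3 the CD27 difference from Early Ery A was -0.406 to -0.556, whereas in numbers 2 and 4 it was -0.0394 to -0.121. CD38, an ectoenzyme of stem and activated cells, differed by -0.212 ± 0.129 and -0.241 ± 0.127, and CD150 by -0.146 ± 0.0493 and -0.127 ± 0.0410. Of the 7 proteins in the multipotent or stem list, 3 were called lower against each early class and none higher. Of all 35 proteins, 17.1% were called lower against each early class. Called higher were 11.4% against Early Ery A and 5.71% against Early Ery B. CD135 (Flk2), a receptor of multipotent progenitors, was slightly higher in Ery A in all 8 cell groups, by 0.0254 ± 0.0236 and 0.0297 ± 0.0130. Its score was 0.0840 to 0.122, among the lowest of the panel, and CD34 was 0.0995 to 0.225. Sca-1 was -0.0364 ± 0.0291 from Early Ery A, negative in all 8, and had both signs from Early Ery B.

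Adhesion and activation proteins differed in both directions. CD54 (ICAM-1) differed by -0.229 ± 0.0797 from Early Ery A and by -0.219 ± 0.0758 from Early Ery B. CD86, a co-stimulatory ligand, differed by -0.108 ± 0.0638 and -0.125 ± 0.0783, and MHCII by -0.139 ± 0.0834 from Early Ery A. The call of CD86 against Early Ery A was lost without C1 or D1. CD9, a tetraspanin of megakaryocytes and platelets, differed by -0.204 ± 0.121 from Early Ery B. From Early Ery A it differed by -0.222 ± 0.165 and was positive in C4 alone (0.0416). CD62L was higher in Ery A in all 8 cell groups, by 0.136 ± 0.0596 and 0.208 ± 0.0803. As a share of ADT counts, however, CD62L was 0.614% ± 0.462 in Early Ery A, a fold of 0.973 for Ery A. The call of CD62L against Early Ery A was lost on the log2 scale and at equal depth. It was also lost with scores centred on the lineage antibodies, a setting that lowers such differences because TER-119 is among them. CD48 differed by -0.183 ± 0.0354 from Early Ery A and -0.192 ± 0.0307 from Early Ery B in numbers 1 and 3. In numbers 2 and 4 the same differences ran from -0.0392 to 0.0410 and from -0.0256 to 0.0120.

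**Figure D3:**
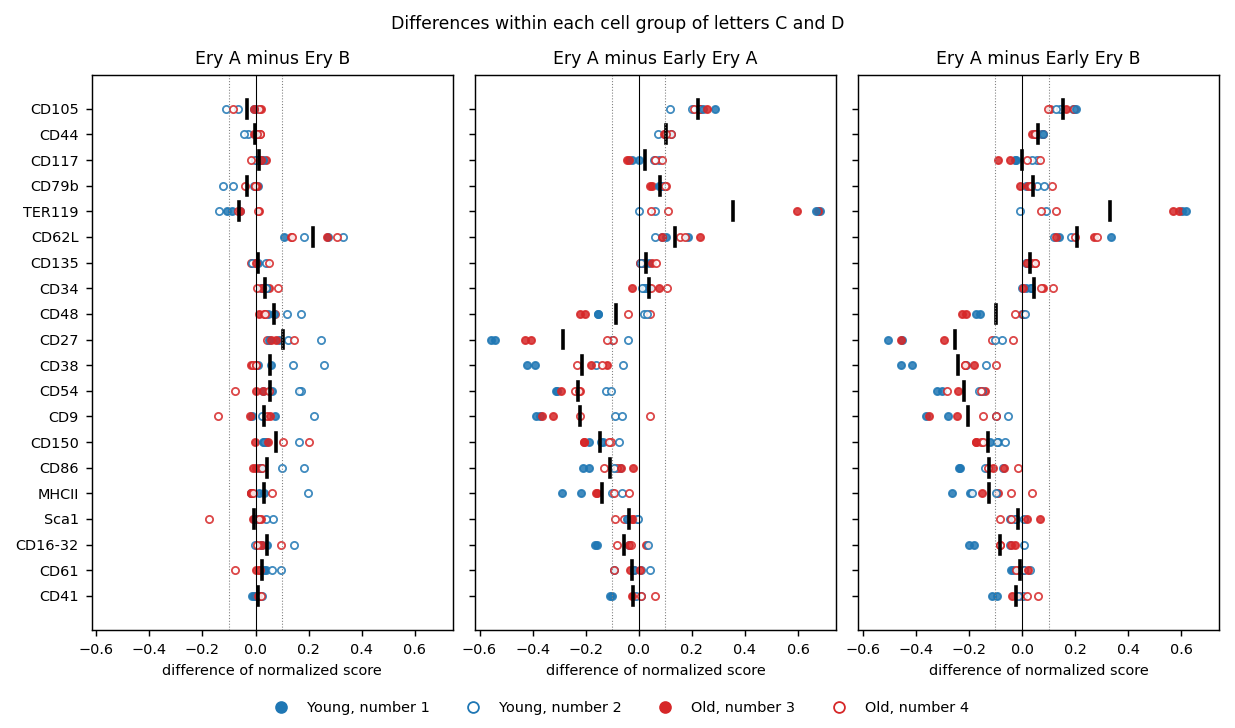
Difference in normalized score (x) of Ery A from Ery B, Early Ery A and Early Ery B for 20 proteins (y), with 1 point per cell group of letters C and D, black bars at the mean and dotted lines at the limit of 0.1. CD62L stands apart from Ery B, and against the early classes CD105 is higher, CD27, CD38 and CD54 are lower, and TER-119 splits by number.

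Of 6 granulocyte-monocyte proteins and of 7 B and T lymphoid proteins, 0 were called against each of the 3 classes, beside 5.71% of all 35 against Ery B, 28.6% against Early Ery A and 22.9% against Early Ery B. Their mean scores per cell group in Ery A were 0.212 to 0.293 and 0.144 to 0.190. Cells had been sorted as lineage-negative, and the median Ery A cell held 0 tags of CD3, CD4 and CD11b in every cell group. For CD3, CD4 and CD11b a difference of 0.1 was thus unlikely from the start, so their part in these counts of 0 carries little weight. Other members of the 2 lists did pass the limit in some cell groups. In numbers 1 and 3 alone, B220 was called higher in Ery A than in Early Ery A. There CD16/32 and F4-80 were called lower than in Early Ery B. The lymphoid list leaves out CD79b, which stood at 1.16 to 1.52. Of the 8 mature lineage proteins, TER-119 alone was called, against Early Ery A, and of the 6 megakaryocyte and platelet proteins 0 were called against Ery B, 1 against Early Ery A (CD150) and 2 against Early Ery B (CD9 and CD150). Of the 6 Armenian hamster antibodies, that against CD27 was called in each of these comparisons and that against CD79b in none. Within the mature cell lists CD11b was lowest (0.0344), and Gr-1 highest (0.830 ± 0.0540). The megakaryocyte proteins CD41 (0.0964 ± 0.0260) and CD61 (0.161 ± 0.0325) were low and had both signs from each class. Pooling cells without regard to cell group raised the CD105 difference to 0.375 from Early Ery A and 0.379 from Early Ery B. With scores centred on the lineage antibodies, TER-119 among them, it was 0.159 and 0.102.

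CD48 was lower on Ery A cells of Old than of Young mice, and none of the 4 markers of the class was called with age. The score of CD48 was 1.47 in C1, 1.41 in C2, 1.47 in D1 and 1.43 in D2, all Young. It was 1.28 in C3, 1.32 in C4, 1.28 in D3 and 1.28 in D4, all Old, so that the ages did not overlap. Old minus Young was -0.141 in letter C and -0.169 in letter D, with a mean of -0.155 ± 0.0200 (SD, n = 2 letters). As a share of ADT counts CD48 was 4.25 to 6.37% in the Old and 7.62 to 10.3% in the Young cell groups. Of 35 proteins, 2 (5.71%) were called, and 2 (5.71%) had cell groups that did not overlap by age. The second without overlap was CD8a, named after its values were seen, at 0.0217 ± 0.0153 higher in Old.

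The other called protein was CD38, with a mean difference of -0.114 ± 0.00942. Its score was 0.455 in C2 and 0.535 in D2, and 0.260 in C4 and 0.323 in D4, whereas in C1, C3, D1 and D3 it ran from 0.165 to 0.211. The ages overlapped, and the larger differences lay in numbers 2 and 4. The call was lost when cells were thinned to 300 ADT counts (-0.0833) and when C2 (-0.0528), C3 (-0.0900), D2 (-0.0216) or D3 (-0.0745) was left out. Leaving out 1 cell group leaves the ages of that letter with different numbers. CD86 (-0.0995 ± 0.00618), named after its values were seen, lay just under the limit.

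CD105 differed between Old and Young by -0.0185 ± 0.0224, CD44 by -0.0208 ± 0.00482, CD117 by 0.0290 ± 0.0160 and CD79b by 0.00957 ± 0.0122. TER-119 differed by 0.0206 ± 0.0415 and CD34 by 0.0377 ± 0.0332. CD150 (0.00225), CD135 (0.0173), Sca-1 (-0.0156), CD41 (0.00728), CD16/32 (0.0117), CD61 (-0.0215) and CD9 (-0.00686) lay under 0.03. Of the 7 multipotent or stem proteins 2 were called lower, and of the 4 erythroid proteins 0, beside 5.71% called and a median of 0.00367 over all 35.

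**Figure D4:**
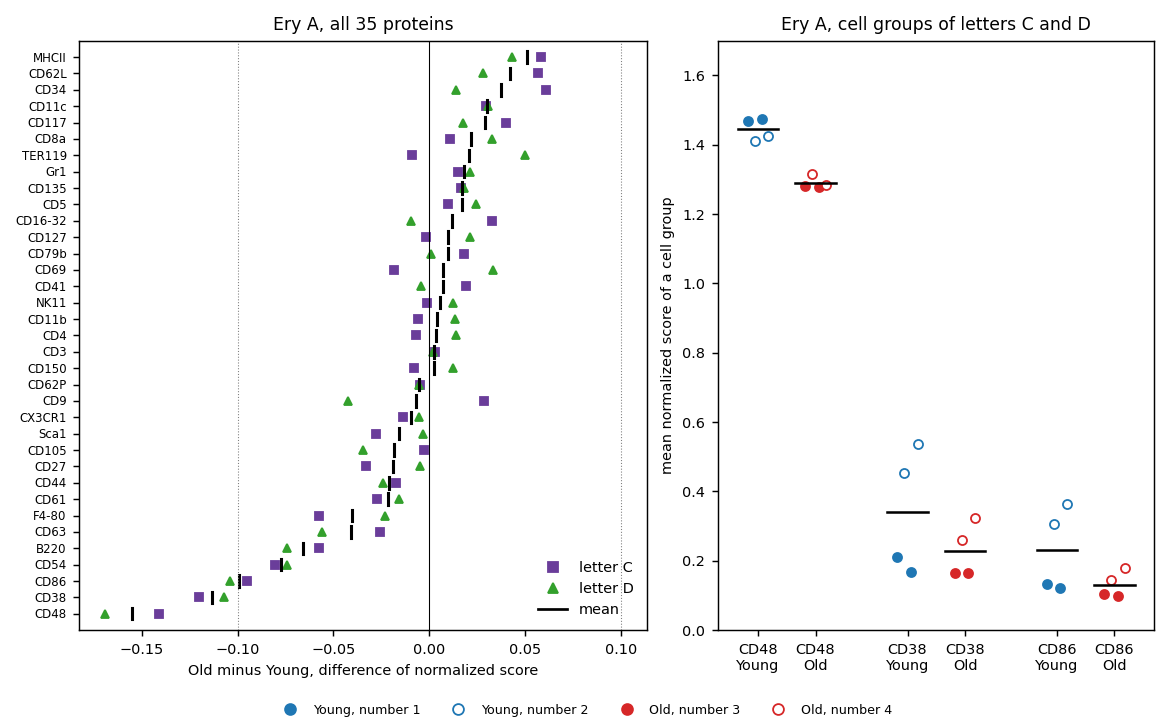
Left, difference in normalized score between Old and Young Ery A cells (x) for all 35 proteins (y), with squares for letter C, triangles for letter D, bars at the mean and dotted lines at the limit of 0.1. Right, scores of CD48, CD38 and CD86 in each cell group (y), where CD48 lies between 1.28 and 1.32 in Old (red) and 1.41 and 1.47 in Young (blue).

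The lower CD48 of Old cells was found in other classes too. Comparing number 3 with number 1 as the mean of letters C and D, CD48 was lower in Old in 16 of 16 classes, by a mean of -0.191 in Ery A, -0.156 in Ery B and -0.0791 in GMP/Neut progenitor A. CD105 was lower in 16 of 16 classes as well. CD79b was lower in 8 of 16. CD79b and CD48 are both detected by Armenian hamster antibodies. Of the 6 such antibodies 1, that against CD48, was called with age, beside 5.71% of all 35 proteins. A part of antibody type in these differences was not tested. Age and cell group cannot be told apart, since each cell group held 1 age.

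The authors' protein gates placed Ery A among CD117-positive, Sca-1-low cells, and differed by age for CD48. Of the Ery A cells of C and D, 90.6% (exact 95% interval 88.8 to 92.2%) passed the CD48 gate (a score above 1.1), 96.1% (94.5 to 97.3%) in Young and 81.7% (78.0 to 85.1%) in Old. Thinned to 300 ADT counts per cell, these shares were 73.9% and 41.4%. As deposited, the share was 96.0% in C1 against 80.8% in C3 and 94.3% in D1 against 79.1% in D3, whereas all Ery A cells of C2, C4 and D2 passed, and 92.6% of D4. Thinned, numbers 2 and 4 differed as well, with 85.7% of 77 cells in C2 against 15 of 25 cells in C4 and 91.7% of 72 in D2 against 70.4% of 27 in D4. The CD150 gate (a score above 0.45) was passed by 32.8% (30.2 to 35.5%) of Ery A, 19.4% of Ery B, 78.0% of Early Ery A and 82.6% of Early Ery B. These intervals cover counting error only, and the sort and pooling set shares of this kind.

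Ery A made up a smaller share of the Old than of the Young cell group with the matching position in each letter. It was 16.4% of the annotated cells in C1 and 13.9% in C3, 16.9% in C2 and 8.96% in C4, 13.3% in D1 and 11.1% in D3, and 12.3% in D2 and 7.69% in D4. The authors' call for Egfp, the RNA of the switched reporter, was negative in 28 of 768 Young Ery A cells (3.65%, 2.44 to 5.23%) and 50 of 476 Old ones (10.5%, 7.90 to 13.6%). By cell group the share was 1.35 to 4.70% in Young and at least 9.48% in Old, highest in C4 (6 of 25), with no overlap. In Ery B it was 6.94% in Young and 10.2% in Old. In letters A and B, 4 of 98 Young cells and 1 of 18 Old cells were negative.

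**Figure D5:**
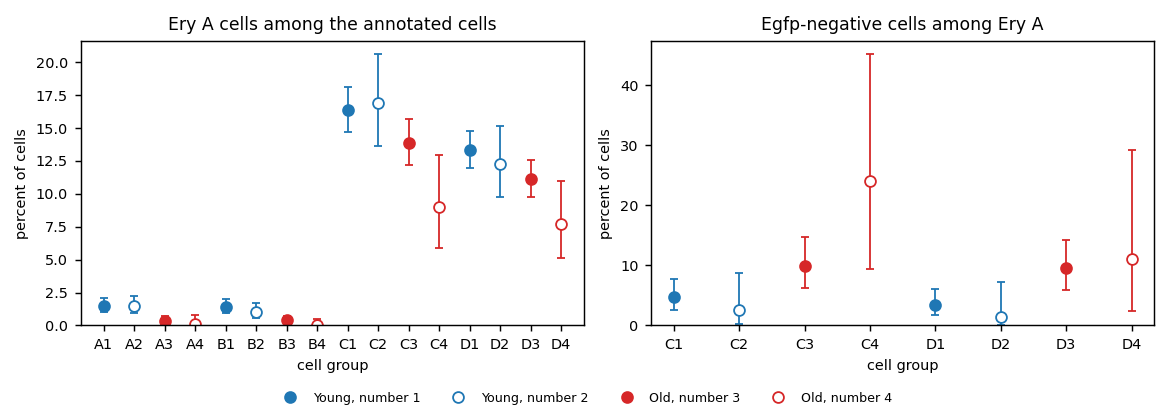
Left, share of annotated cells that were Ery A (y, percent) in each of the 16 cell groups (x). Right, share of Ery A cells called Egfp-negative (y, percent) in the 8 cell groups of C and D (x). Bars give exact 95% intervals for counting error, and every Old cell group of C and D (9.48% or more) lies above every Young one (4.70% or less).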

How the data were processed

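CITE-seq measured RNA and 35 surface proteins in single sorted bone marrow cells. Per the labels, Cell Ranger was run against mm10 (version not given in the sources used here). The authors removed cells with few genes and cells negative for both CD117 protein and Kit RNA, and annotated classes from RNA. The authors deposited raw ADT counts of 22790 cells and a table of 22602 annotated cells, and 188 cells in the counts alone were not used. The table holds the deposited normalized score of each protein, the count totals per cell and the percent of mitochondrial RNA counts.

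The score was rebuilt from the counts (tolerance 1e-08) as log(1 + log(1 + r)). Here r is the ratio of the count to the geometric mean of the 35 counts, each raised by 1 for that mean. Means per class and cell group (a letter and a number) were taken over groups with at least 10 cells of each class, and differences were averaged over the cell groups of letters C and D, or for age over the letters. A protein was called at a mean difference of at least 0.1 with 1 sign throughout. No p-values were computed, since the 8 libraries form 1 condition and cell groups match no library. Percent of ADT counts gave folds, and exact Clopper-Pearson 95% intervals gave the counting error of shares. Cells were thinned to 300 ADT counts with a fixed seed. The calling rule was run on counts simulated with the same planted folds in every cell group. Effects that vary between cell groups, as those of TER-119 did, were not simulated. Scripts used Python 3.11.15, numpy 2.4.6, pandas 2.3.3, scipy 1.17.1 and matplotlib 3.10.9.

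Named proteins were the 4 markers, each called protein (up to 15), and TER-119, CD34, CD135, CD150, CD41, CD48, Sca-1, CD16/32, CD61 and CD9. The lists were erythroid, multipotent or stem, megakaryocyte and platelet, granulocyte-monocyte, B and T lymphoid, mature lineage, adhesion and activation, and Armenian hamster antibodies. The class, its markers and the lists were chosen with earlier results of these data known. Alternatives were other summaries, scales, depths, letters and left-out cell groups.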

Additional observations from a re-analysis of the deposited data

Results flagged for a closer look

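Of 75 sets of 8 cell groups examined, 2 held a value far from the other 7, where chance gives about 1 in 20 such sets. The CD34 score of Ery A was 0.225 in C4, against 0.0995 to 0.158 in the other cell groups. The Sca-1 difference between Ery A and Ery B was -0.177 in C4, against -0.0110 to 0.0671 in the others. C4 held 25 Ery A cells and 13 Ery B cells, the fewest Ery A cells of the 8 cell groups.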

How the results depend on the processing

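Of the single protein values recomputed, 1241 of 1424 were judged unchanged. That meant a move of at most the SD between cell groups or, on the log2 scale, an unchanged call. In the contrasts of classes and of numbers, leaving out 1 cell group or pair cannot move a mean by more than that SD. Leave-one-out aside, 681 values stayed and 103 moved.
The count of proteins called against Ery B fell from 2 to 1 with medians over cells, on the log2 scale, at 300 ADT counts, in cells of middle depth, in GFP+ cells alone and in numbers 1 and 3 alone, each time by the loss of CD27. In numbers 2 and 4 alone it was 3, with CD150 added. Leaving out 1 cell group gave 1 to 2. CD62L was called in every alternative run. Against Early Ery A 10 proteins became 13 without the cell group as block and in numbers 1 and 3 alone, 5 in numbers 2 and 4 alone, and 8 to 10 with 1 cell group left out. Against Early Ery B 8 became 15 without the cell group as block, 14 in numbers 1 and 3 and 5 in numbers 2 and 4 alone, and 8 to 9 with 1 cell group left out. For age, 2 became 1 without the block, on the log2 scale and at 300 counts, 5 at middle depth, and 3 to 5 with 1 cell group left out, and CD48 was called throughout. The contrast of numbers gave 20 in place of 12 on the log2 scale, and 10 to 14 with 1 pair left out. Restricting the classes by number and the alternatives to the contrast of numbers were chosen after seeing the data.
With gates 0.1 higher or lower, the Sca-1 share was 99.6% or 90.3%, the CD150 share 23.2% or 45.3% and the CD48 share 83.6% or 94.6%. At 300 counts the CD117 share was 99.2%, the Sca-1 share 99.7%, the CD150 share 15.9% and the CD48 share 61.4%. The Egfp-negative share of Old cells was 5.56% in letters A and B. The cause of these shifts was not tested. Letters A and B gave no value for the comparison with Ery B or for age, having too few cells. No paired analysis was possible because the cell groups match no library and the libraries form 1 condition. This holds for the libraries, while class differences were taken inside cell groups and those of age and number inside letters. Proteins with a median of 0 or 1 tags per cell, such as CD41 and CD135, are limited by depth.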

Other observations

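Within Ery A, cells with more TER-119 had less CD117 and CD48 and more CD105. Over the cells of C1, C3, D1 and D3 taken separately, Spearman's rho was -0.567 to -0.427 for CD117 with TER-119, -0.580 to -0.497 for CD48 with TER-119 and 0.441 to 0.595 for CD105 with TER-119. Thinned to 300 ADT counts per cell these ranges were -0.560 to -0.440, -0.591 to -0.437 and 0.406 to 0.502. For CD79b rho was -0.124 to -0.0165 with CD105 and -0.0619 to -0.00269 with TER-119 as deposited, and -0.308 to -0.174 and -0.148 to -0.0246 thinned. The proteins of a cell share its library, its depth and the denominator of the score, and cells are not replicates, so these values are descriptions.

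Between Egfp-positive and Egfp-negative Ery A cells of the same 4 cell groups, 0 of 35 proteins had a mean difference of at least 0.1 with 1 sign in every cell group. TER-119 was 0.0860 ± 0.0476 and CD48 0.0723 ± 0.0309 higher in the positive cells, in 4 of 4 cell groups each, both named after their values were seen.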
